A study of Homo sapiens with 6 samples.

Results

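The genes described here encode the cyclooxygenases (COX-1 and COX-2), 2 prostaglandin E synthases and 6 prostaglandin receptors, in OVCAR-3 ovarian cancer cells with and without knockdown of COX-1. They were picked by gene symbol from a list of 10 names (PTGS1, PTGS2, PTGES, PTGES2, PTGER1, PTGER2, PTGER3, PTGER4, PTGFR and PTGIR), and 9 of these had a row among the 34811 genes of the count table. PTGFR, the prostaglandin F receptor gene, is not analysed here. RNA-seq compared OV3/SCR cells, which carry a scrambled shRNA, with OV3/COX1KD cells, which carry an shRNA against COX-1, with 3 libraries in each group from separately grown cell populations. Both lines were derived from parental OVCAR-3 cells, an established human ovarian carcinoma line, by stable transfection of a pRS HuSH-29 plasmid and selection with puromycin, and both were grown in RPMI-1640 with 10% FBS. Each group was 1 clone, so an effect of the shRNA and a difference between clones cannot be told apart in any comparison here, and p-values measure the spread between cultures of those clones.

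Cyclooxygenases convert arachidonic acid, which phospholipases release from membranes, into prostaglandin H, and terminal synthases turn prostaglandin H into the individual prostanoids. COX-1 is usually present at a steady level, whereas COX-2 is induced by growth factors and cytokines in many tissues. PGE2 acts on neighbouring cells through 4 receptors: EP2 and EP4 (genes PTGER2 and PTGER4) couple to Gs and raise cAMP, EP3 (PTGER3) mostly couples to Gi and lowers it, and EP1 (PTGER1) raises calcium.

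Library totals lay between 25291505 and 27391538 counts, and 3 counts, taken as the smallest detectable level, corresponded to 0.113 to 0.120 CPM (counts scaled to library size) after scaling by edgeR's TMM factors. The 8 epithelial and Mullerian markers checked (PAX8, WT1, MUC16, EPCAM, KRT7, KRT8, KRT18 and CDH1) summed to 4657 to 4687 CPM in OV3/SCR and 6005 to 6182 CPM in OV3/COX1KD libraries. Not all of them followed the sum, as mean levels went from 756 to 447 CPM for PAX8 and from 1041 to 943 CPM for KRT7, while the other 6 had higher means in OV3/COX1KD. The leukocyte markers (4 genes) summed to 0.526 to 1.23 CPM over the 6 libraries and the endothelial markers (2 genes) to 0.998 to 1.95 CPM. The fibroblast markers (6 genes) summed to 10.9 to 11.6 CPM in OV3/SCR and 6.72 to 7.43 CPM in OV3/COX1KD, mostly from COL1A1, with LUM at or under 3 counts throughout. Their part in the results below was not tested.

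The comparison of the groups tested 17309 genes with enough counts, by edgeR's quasi-likelihood method with Benjamini-Hochberg adjustment, and a gene was called at an FDR under 0.01. Of the 9 listed genes with a row, 4 were tested and 5 had too few counts. Among those tested, PTGER2 was higher and PTGS1 lower in OV3/COX1KD cells, and PTGES2 and PTGER4 did not pass the threshold. These 2 called genes of 4 stand beside 47.9% of all tested genes, so the share of calls was near the background. The same 2 genes were called with the replicate block, where 47.6% of all tested genes were, and with DESeq2, where 41.3% were. By direction, 25.8% of tested genes were called higher (4473) and 22.1% lower (3820), and with scaling by total counts alone 48.8% were called, 20% higher (3466) and 28.8% lower (4978). CPM ranges of the groups did not overlap for 5 of the 9 genes, against 36.7% of all genes in the table, and for all 4 tested genes, against 63.2% of those tested. In the plot of counts by library, 4 of the 9 genes stand well above the floor and 5 near it.

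**Figure D1:**
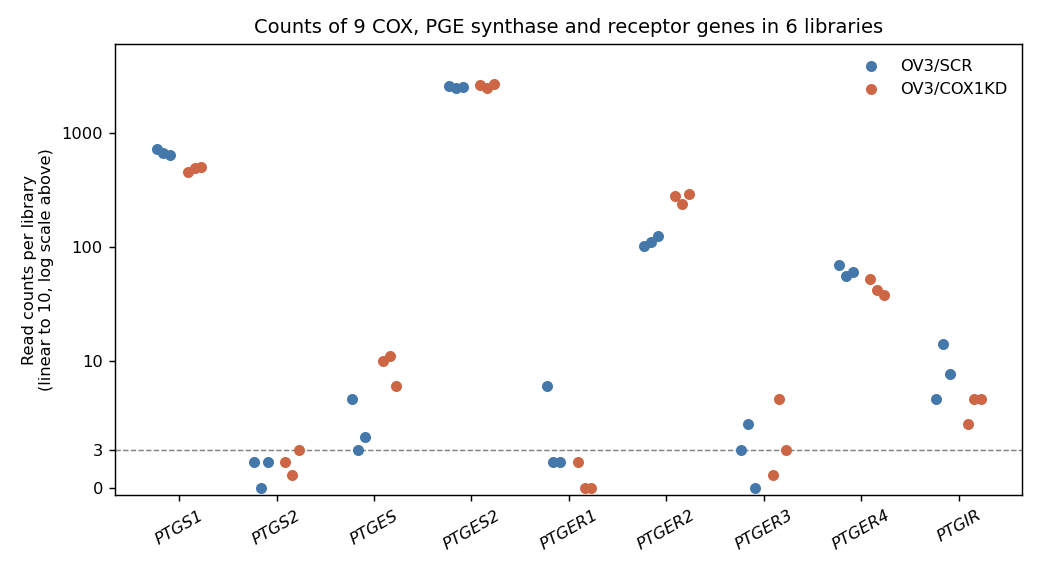
Read counts of each gene in the 3 OV3/SCR libraries (blue) and the 3 OV3/COX1KD libraries (orange), 1 point per library. The vertical axis is linear up to 10 counts and logarithmic above, and the dashed line marks 3 counts. PTGS1, PTGES2, PTGER2 and PTGER4 lie well above that line, and PTGS2 lies at or below it in all 6 libraries.

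PTGS1, which encodes COX-1 and is the target of the shRNA, was the lower of the called genes. PTGS1 (ENSG00000095303) lies at chr9:125132809-125157982 of GRCh37 on the plus strand. It was counted 713, 658 and 641 times in OV3/SCR replicates 1 to 3, and 456, 486 and 501 times in OV3/COX1KD replicates 1 to 3. The groups did not overlap, and the highest OV3/COX1KD library was below the lowest OV3/SCR library. Scaled levels were 26.75, 25.25 and 24.8 CPM in OV3/SCR and 18.1, 19.4 and 18.8 CPM in OV3/COX1KD. The fold change was 0.733 with a 95% interval of 0.675 to 0.797 (edgeR FDR = 1.3e-06, n = 3 per group), which leaves 73.3% of the control level. The direction and the call held in all 12 alternatives, with log2 fold changes from -0.53 to -0.41. A larger absolute log2 fold change was seen in 31.6% of tested genes. Of the 31 tested genes within 2 Mb (mean log2 CPM of at least 1), whose median log2 fold change was 0.28, only 1 had a lower estimate than PTGS1.

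PTGS2, which encodes COX-2, was barely counted in either group. It lies at chr1:186640923-186650054 of GRCh37 (ENSG00000073756, minus strand). OV3/SCR replicates 1 to 3 held 2, 0 and 2 reads of PTGS2, and OV3/COX1KD replicates 1 to 3 held 2, 1 and 3. No library exceeded 3 counts and the groups overlapped, so no fold change is given. The pooled counts put its level at 0.0509 CPM in OV3/SCR (exact 95% Poisson interval 0.0139 to 0.130) and 0.0781 CPM in OV3/COX1KD (0.0286 to 0.170). These intervals pool the 3 libraries of a group and cover counting error only, as do all counting intervals here. They leave out the spread between cultures, and they treat PCR copies of a read, which are not independent molecules, as separate counts. PACERR, a long noncoding RNA on the opposite strand, shares 3.99% of the exon length of PTGS2 and had at most 1 count in a library.

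Set side by side per length, COX-1 mRNA far exceeded COX-2 mRNA in both lines. Per kilobase of merged exons, PTGS1 stood at 4.43 ± 0.177 CPM in the OV3/SCR libraries and at 3.25 ± 0.110 CPM in the OV3/COX1KD libraries (SD, n = 3 each). The ratio of PTGS1 to PTGS2 per length, from pooled counts, was 477 in OV3/SCR (exact 95% interval 186 to 1752). In OV3/COX1KD cells it was 228 (105 to 622). The difference of this ratio between the lines was not tested, and its precision is set by the 4 and 6 pooled reads of PTGS2. In OV3/SCR, 56.8% of 16800 tested genes with an annotated length had a lower level per length than PTGS1.

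The promoters of the COX genes are shown for comparison, as these enzymes of the same step differed widely in mRNA level. A link between promoter sequence and level was not tested. Of the 10 listed genes, 8 matched the RefSeq promoter table of GRCh38.p14, with 11 start sites in all. The sequences give the 250 bases before a start site, 5′ to 3′ on the gene's strand, and capitals mark 3 motifs searched on both strands: the TATA box TATAAA (reverse TTTATA), the GC box GGGCGG (reverse CCGCCC) and TGACG (reverse CGTCA), the core of the cAMP response element. PTGS2 is at chr1:186680424-186680673, minus strand, and the start sites of PTGS1 are at chr9:122370283-122370532, plus strand, and chr9:122375052-122375301, plus strand, all in GRCh38.p14.
PTGS2: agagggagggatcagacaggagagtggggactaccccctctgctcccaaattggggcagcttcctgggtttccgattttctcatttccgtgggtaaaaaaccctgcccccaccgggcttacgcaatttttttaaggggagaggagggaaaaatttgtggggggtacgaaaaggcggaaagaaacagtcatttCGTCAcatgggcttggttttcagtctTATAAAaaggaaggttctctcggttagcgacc
PTGS1, upstream start: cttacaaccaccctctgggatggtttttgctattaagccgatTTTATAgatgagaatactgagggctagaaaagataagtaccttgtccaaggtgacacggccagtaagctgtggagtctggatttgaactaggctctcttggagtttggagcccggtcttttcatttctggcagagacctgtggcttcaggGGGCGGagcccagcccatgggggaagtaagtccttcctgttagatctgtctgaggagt
PTGS1, downstream start: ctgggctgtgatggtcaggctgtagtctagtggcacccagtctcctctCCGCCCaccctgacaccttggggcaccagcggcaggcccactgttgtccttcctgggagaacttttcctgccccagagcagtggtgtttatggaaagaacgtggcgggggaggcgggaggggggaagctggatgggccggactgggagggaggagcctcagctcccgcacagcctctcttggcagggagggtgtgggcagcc
The PTGS2 window held 1 TATA match and 1 TGACG core and no GC box, at 50.4% G and C. The downstream PTGS1 window held 1 GC box and neither of the other motifs, at 65.2% G and C, while the upstream one held 1 GC box and 1 TATA match, at 49.6%. Over all 35116 promoters of the table, 10.7% held a match to the TATA letters, 42.6% to the GC box and 21.2% to TGACG. Matches were counted at any position of the 250 bases, so they do not show a working element. The count table does not tell which PTGS1 start was used.

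Among the PGE synthases, the membrane-bound PTGES2 was abundant and nearly level between the lines, while PTGES, the inducible microsomal form that often acts with COX-2, was close to the floor. PTGES2 (ENSG00000148334) lies at chr9:130882972-130890741 of GRCh37, minus strand. Its scaled levels were 95.4, 94.9 and 97.5 CPM in OV3/SCR and 104.7, 99.05 and 100.9 CPM in OV3/COX1KD replicates 1 to 3. The ranges did not overlap, yet the fold change was only 1.06 (95% interval 1.01 to 1.11) and missed the threshold (edgeR FDR = 0.0491, n = 3 per group). Of the 12 alternatives 1 called it, the test without OV3/COX1KD replicate 2 (edgeR FDR = 0.00520, log2 fold change 0.11). That test also called the most genes of all alternatives, 8989. Over the alternatives the FDR of PTGES2 ranged from 0.00520 to 0.933. The highest FDR came with total count scaling, where the log2 fold change was 0.004. A larger absolute log2 fold change was found in 83.4% of tested genes.

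PTGES (ENSG00000148344) lies at chr9:132500610-132515321 of GRCh37, minus strand. Its reads numbered 7, 3 and 4 in OV3/SCR and 10, 11 and 8 in OV3/COX1KD replicates 1 to 3. Each OV3/COX1KD library was above each OV3/SCR library, but by as little as 1 count. The counts pooled by group, 14 and 29, gave a ratio of 2.12 with an exact 95% interval of 1.08 to 4.34 for counting error only. In the test with no filter on low counts the edgeR FDR was 0.0916, so PTGES was not called. Per length, PTGES2 exceeded PTGES 167-fold (99.7 to 306) in OV3/SCR and 83.6-fold (58.2 to 125) in OV3/COX1KD. With the longest transcript in place of merged exons these ratios were 290 and 145, as the longest PTGES2 transcript has 3473 bases and its merged exons 6084.

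Of the 4 tested genes on the list, a PGE2 receptor gene had the largest absolute log2 fold change. PTGER2, the gene for EP2, rose in OV3/COX1KD cells, PTGER4, the gene for EP4, did not pass the threshold, and PTGER1 and PTGER3 were at or close to the floor. PTGER2 (ENSG00000125384) lies at chr14:52781023-52795316 of GRCh37, plus strand. It was counted 102, 111 and 124 times in OV3/SCR and 278, 235 and 291 times in OV3/COX1KD replicates 1 to 3, so the lowest OV3/COX1KD library was well above the highest OV3/SCR library. Scaled levels were 3.83, 4.26 and 4.80 CPM in OV3/SCR against 11.05, 9.38 and 10.9 CPM in OV3/COX1KD. The rise was 2.44-fold with a 95% interval of 2.09 to 2.84 (edgeR FDR = 3.1e-09, n = 3 per group). It was called in all 12 alternatives, with log2 fold changes from 1.21 to 1.37. Only 4.26% of tested genes had a larger absolute log2 fold change. None of the 22 tested genes within 2 Mb (mean log2 CPM of at least 1) had an estimate as high, nor did any of the 55 within 5 Mb, and the medians of these neighbours were 0.12 and 0.10 on the log2 scale.

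PTGER4 (ENSG00000171522) lies at chr5:40680017-40693837 of GRCh37, plus strand. It had 69, 56 and 60 reads in OV3/SCR and 52, 42 and 38 in OV3/COX1KD replicates 1 to 3. In CPM these were 2.59, 2.15 and 2.32 against 2.07, 1.68 and 1.43, ranges that came close without overlapping. The fold change of 0.731 (95% interval 0.561 to 0.951) was the same size as that of PTGS1, but with a wider interval at this lower count it missed the threshold (edgeR FDR = 0.0388, n = 3 per group). None of the 12 alternatives called PTGER4, and their FDR ranged from 0.0164 to 0.174. The pseudogenes PTGER4P2 and PTGER4P3, which could draw reads from the same sequence, had at most 2 counts in a library.

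**Figure D2:**
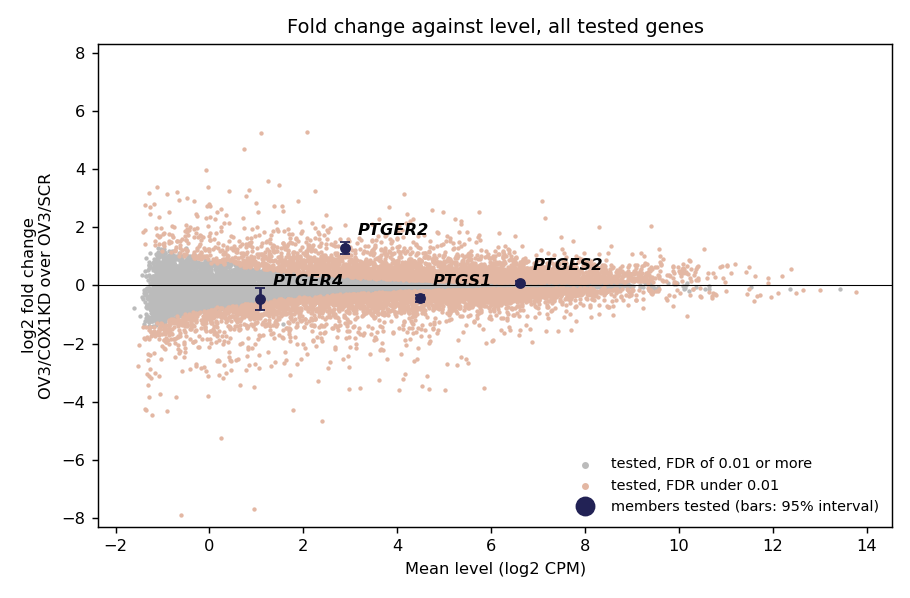
Log2 fold change (OV3/COX1KD over OV3/SCR) against mean level (log2 CPM) for 17309 tested genes, with called genes in light orange and the rest in grey. Dark points with 95% intervals are the 4 listed genes that were tested. PTGER2 lies furthest from 0 of these 4, with a 2.44-fold rise, and the interval of PTGER4 is the widest.

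PTGER1 (ENSG00000160951) lies at chr19:14583278-14586166 of GRCh37, minus strand. It was read 8, 2 and 2 times in OV3/SCR, and 2, 0 and 0 times in OV3/COX1KD replicates 1 to 3. OV3/SCR replicate 1 held most of its counts and was alone in exceeding 3, and the groups overlapped. The pooled counts, 12 and 2, gave a ratio of 0.170 with an exact 95% interval of 0.0185 to 0.765 for counting error only. Without the filter, PTGER1 had an edgeR FDR of 0.0749. PTGER3 (ENSG00000050628) lies at chr1:71318036-71513499 of GRCh37, minus strand. Its reads were 3, 5 and 0 in OV3/SCR and 1, 7 and 3 in OV3/COX1KD replicates 1 to 3, with overlapping groups and a pooled ratio of 1.41 (0.515 to 4.03). Its edgeR FDR without the filter was 0.676, and a difference was not detectable at this depth.

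The promoters of PTGER2 and PTGER4 are shown for comparison, because these Gs-coupled receptors had fold changes of opposite direction, 1 of them called. They give the 250 bases before the RefSeq start, with capitals for the same 3 motifs, at chr14:52314062-52314311, plus strand, and chr5:40679665-40679914, plus strand, in GRCh38.p14.
PTGER2: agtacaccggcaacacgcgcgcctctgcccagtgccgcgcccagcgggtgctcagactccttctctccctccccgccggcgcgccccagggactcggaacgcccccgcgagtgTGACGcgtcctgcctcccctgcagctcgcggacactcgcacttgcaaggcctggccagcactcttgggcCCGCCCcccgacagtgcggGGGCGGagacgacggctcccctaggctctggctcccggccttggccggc
PTGER4: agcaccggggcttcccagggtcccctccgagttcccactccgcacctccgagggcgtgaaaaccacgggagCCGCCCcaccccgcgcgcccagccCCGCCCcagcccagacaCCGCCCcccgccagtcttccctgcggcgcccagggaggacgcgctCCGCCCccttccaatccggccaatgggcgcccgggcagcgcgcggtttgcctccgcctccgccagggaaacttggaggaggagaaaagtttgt
Both windows were rich in G and C (74.0% and 72.8%) and lacked TATAAA. The PTGER2 window held 2 GC boxes and 1 TGACG core, and the PTGER4 window held 4 GC boxes and no TGACG core. A match of letters is a description of the window and does not show that a factor binds there. Whether these windows bear on the fold changes was not tested.

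The ratio of PTGER2 to PTGER4 counts within a library needs no scaling factor. It was 1.48, 1.98 and 2.07 in OV3/SCR replicates 1 to 3, and 5.35, 5.60 and 7.66 in OV3/COX1KD replicates 1 to 3. The groups did not overlap. The mean log2 ratio was 0.87 ± 0.26 in OV3/SCR and 2.61 ± 0.28 in OV3/COX1KD (SD, n = 3 each), a difference of 1.75 or 3.36-fold. A two-sided exact permutation test over the libraries gave p = 0.100, the smallest that 3 against 3 allows. Summed over the 4 PGE2 receptor genes, the level per length was 2.52 ± 0.125 CPM per kilobase in OV3/SCR and 4.76 ± 0.417 in OV3/COX1KD (SD, n = 3 each, exact permutation p = 0.100). PTGER2 made up 61.9%, 71.8% and 73.3% of this sum in OV3/SCR, and 87.4%, 88.4% and 91.5% in OV3/COX1KD. In bulk RNA, a change in the number of cells that express a receptor and a change of its RNA per cell cannot be told apart.

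**Figure D3:**
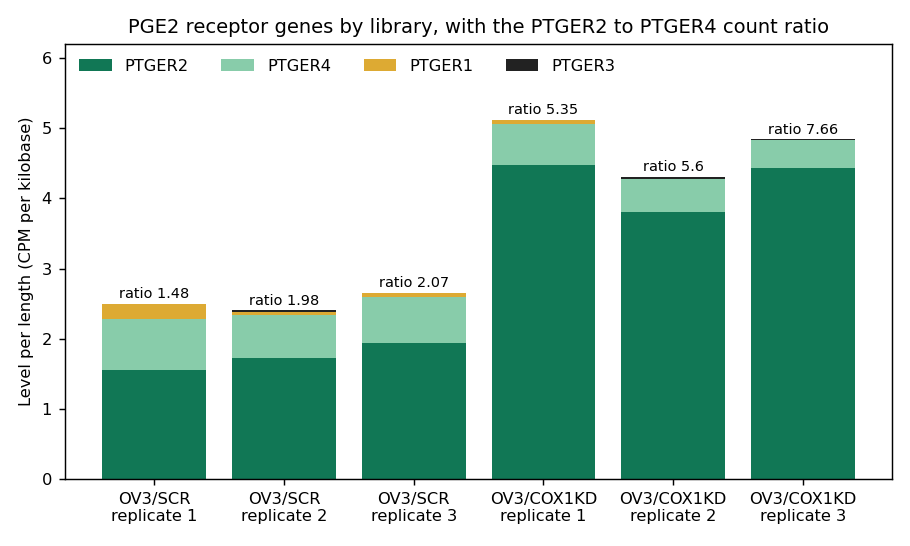
Level per length (CPM per kilobase of merged exons) of PTGER1 to PTGER4, stacked for each of the 6 libraries, with the PTGER2 to PTGER4 count ratio printed above each bar. The summed level lies between 2.41 and 2.66 in OV3/SCR and between 4.31 and 5.12 in OV3/COX1KD, and the PTGER2 part accounts for the added height.

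PTGIR encodes the prostacyclin receptor, which also couples to Gs. PTGIR (ENSG00000160013) lies at chr19:47123725-47128346 of GRCh37, minus strand. Its reads numbered 7, 14 and 9 in OV3/SCR and 5, 7 and 7 in OV3/COX1KD replicates 1 to 3, and the groups overlapped in CPM. Pooled counts of 30 and 19 gave a ratio of 0.647 with an exact 95% interval of 0.344 to 1.19, and the edgeR FDR with no filter was 0.402. Per length, PTGER2 exceeded PTGIR 16.03-fold (11.02 to 24.1) in OV3/SCR and 60.4-fold (38.4 to 101) in OV3/COX1KD. With the longest transcript of each gene these ratios were 9.50 and 35.8, outside the counting intervals, so they depend on the length used.

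Ordered by level per length in OV3/SCR cells, the list ran from PTGES2 (15.8 ± 0.230 CPM per kilobase, SD, n = 3) through PTGS1 (4.43 ± 0.177), PTGER2 (1.74 ± 0.197) and PTGER4 (0.664 ± 0.0625) to the scarce genes. PTGIR (0.109), PTGER1 (0.107) and PTGES (0.0939) followed and did not differ beyond their spread, and PTGER3 (0.00987) and PTGS2 (0.00926) came last without differing from each other. In OV3/COX1KD cells PTGES2 was still the highest at 16.7 ± 0.474. There PTGER2, at 3.81 to 4.48 CPM per kilobase, lay above PTGS1, at 3.13 to 3.35, whereas in OV3/SCR it was at 1.55 to 1.95, below PTGS1 at 4.29 to 4.63. With the longest transcripts the OV3/COX1KD ranges overlapped, at 3.81 to 4.49 for PTGER2 and 3.61 to 3.86 for PTGS1, and in replicate 2 PTGS1 was the higher (3.864 against 3.815). The other end of the order in OV3/COX1KD held PTGER4 (0.486 ± 0.0910), PTGES (0.200), PTGIR (0.0702), and, with no order beyond their spread, PTGER1 (0.0188), PTGS2 (0.0141) and PTGER3 (0.0140).

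Genes whose log2 CPM followed PTGS1 or PTGER2 most closely over the 6 libraries were listed as a description, among 13011 other genes. For PTGS1 these were CD2BP2, RGL2 and MOK, with Pearson r between 0.9982 and 0.9986. For PTGER2 they were ELOVL6, PRICKLE1 and LSM14B, with r between 0.9987 and 0.9991. Since the 6 points form 2 groups that differ for many genes, high values were common, and 270 genes had an r above 0.99 with PTGER2 and 107 with PTGS1.

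Around these genes, 7 lists of the prostanoid pathway held 107 genes, of which 83 were tested and 56 called, 32 higher and 24 lower in OV3/COX1KD. Their median log2 fold change was 0.02, beside -0.01 over all tested genes. The share called was 67.5%, against 47.9% of all tested genes. The counts by direction below stand beside 25.8% of all tested genes called higher and 22.1% lower, or 20% and 28.8% with total count scaling. The lists were chosen with results of these data known, so this share is a description.

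The genes listed as synthases beyond PTGES and PTGES2, which include reductases that act on prostaglandins, changed in both directions. Of 8 tested, 4 were called higher and 3 lower (87.5% called, 47.9% over all tested genes), with a median log2 fold change of 0.14. PTGDS, which makes prostaglandin D, had 8, 8 and 9 counts in OV3/SCR and 66, 93 and 83 in OV3/COX1KD, and rose by 3.29 on the log2 scale (standard error 0.25, edgeR FDR = 7.9e-10). An overlapping gene model shares 23.4% of its exon length. PTGIS, the prostacyclin synthase, had 113 to 117 counts in OV3/SCR and 250 to 266 in OV3/COX1KD, a rise of 1.21 on the log2 scale (standard error 0.093, edgeR FDR = 1.0e-09). AKR1C3, which makes prostaglandin F and shares near-identical sequence with other AKR1C genes, rose by 0.52 (edgeR FDR = 3.4e-04), and FAM213B, also linked to prostaglandin F, by 0.41 (edgeR FDR = 1.2e-05). PTGES3, the cytosolic PGE synthase and HSP90 co-chaperone, fell by 0.51 on the log2 scale (standard error 0.028, edgeR FDR = 6.9e-12), from 635 ± 5.62 to 447 ± 8.36 CPM (SD, n = 3). AKR1B1 and CBR1, reductases that act on prostaglandins, fell by 0.31 and 0.13 (edgeR FDR = 1.6e-08 and 0.00215). Other gene models share 18.9% and 15.6% of the exon length of CBR1, and 13.4% of that of FAM213B.

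On the list of other receptor genes, 2 were tested, and of these only TBXA2R encodes a prostanoid receptor. PTGFRN, a membrane protein that binds near the prostaglandin F receptor, rose from 59.0 ± 1.24 to 80.5 ± 3.67 CPM (SD, n = 3), or by 0.45 on the log2 scale (standard error 0.040, edgeR FDR = 1.1e-08). TBXA2R, the thromboxane receptor gene, was at 1.16 ± 0.116 CPM in OV3/SCR and 1.26 ± 0.190 CPM in OV3/COX1KD (SD, n = 3), with an edgeR FDR of 0.650.

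Of 16 genes listed for the release of arachidonic acid, 9 were tested and 4 called, 3 lower and 1 higher, with a median log2 fold change of -0.15. PLA2G4A, PLA2G2A and PLA2G5 had no row in the count table. PLAA, which was tested, encodes an activator of phospholipases. The share called, 44.4%, was close to the 47.9% of all tested genes, and total count scaling called 5 lower and 1 higher. PLA2G4C, a cytosolic phospholipase, had 22 to 29 counts in OV3/SCR and 6 to 11 in OV3/COX1KD, and fell by 1.62 on the log2 scale (standard error 0.33, edgeR FDR = 3.3e-04). MGLL, which hydrolyses monoacylglycerols, fell by 0.78 (edgeR FDR = 6.2e-04) and PLA2G6, a calcium-independent phospholipase, by 0.48 (edgeR FDR = 4.3e-05). PLA2G12A, a secreted phospholipase, rose by 0.58 (standard error 0.042, edgeR FDR = 4.2e-10). Other gene models cover 18.8% of the exon length of PLA2G6 and 15.8% of that of PLA2G12A.

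Of 7 tested genes for transport and breakdown, 5 were called higher and 1 lower (85.7% called, 47.9% over all tested genes), and the median log2 fold change was 0.36. The counts were the same with total count scaling, where the median was 0.29. SLCO3A1, an organic anion transporter that carries prostaglandins, rose from 23.0 ± 0.341 to 56.0 ± 2.74 CPM (SD, n = 3), or by 1.29 on the log2 scale (standard error 0.049, edgeR FDR = 2.9e-14). PTGR1, a reductase that inactivates prostaglandin metabolites, rose by 0.73 (edgeR FDR = 3.1e-12), and PTGR2, a related reductase, by 0.36 (edgeR FDR = 5.7e-06). Other gene models share 14.2% and 20.8% of the exon length of PTGR2. The exporter ABCC4 rose by 0.37 (edgeR FDR = 1.7e-06) and the uptake carrier SLCO2A1 by 0.23 (edgeR FDR = 5.8e-05). CBR3, a carbonyl reductase, fell by 0.68 (edgeR FDR = 5.2e-04), but an antisense gene covers 71.1% of its exon length. HPGD, which starts the breakdown of PGE2 and was singled out after its values were seen, had at most 1 count in any library.

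Among the G proteins and effectors through which the receptors signal, 21 of 30 tested genes were called, 16 higher and 5 lower (70% called, 47.9% over all tested genes), with a median log2 fold change of 0.20. Total count scaling called 12 higher and 5 lower. ADCY2, an adenylyl cyclase, was counted 69, 64 and 47 times in OV3/SCR and 181, 189 and 227 times in OV3/COX1KD, a rise of 1.76 on the log2 scale (standard error 0.13, edgeR FDR = 9.1e-10). The beta-arrestin gene ARRB2 rose by 0.83 (edgeR FDR = 4.2e-11) and PRKAR2B, a regulatory subunit of protein kinase A, by 0.77 (edgeR FDR = 4.9e-09). RAPGEF3, the cAMP-activated exchange factor EPAC1, fell by 0.73 (standard error 0.040, edgeR FDR = 5.5e-12), and another gene model covers 15.2% of its exons. The other 4 that fell were ADCY6, ADCY9, PLCB3 and PLCB4, with log2 fold changes between -0.39 and -0.14.

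Of 20 tested genes listed as responsive to cAMP and CREB, 12 were called lower and 2 higher (70% called, 47.9% over all tested genes). The median log2 fold change of the 20 was -0.30. The 12 include CRTC1, a coactivator of CREB (log2 fold change -0.26), and SIK1 (-0.28). Another gene model shares 91% of the exon length of SIK1. Total count scaling called 13 lower and 2 higher. The 2 that rose were FOS (log2 fold change 1.01, edgeR FDR = 5.3e-08) and PDE3A (1.72, edgeR FDR = 1.7e-04). Of those that fell, PDE4D, a phosphodiesterase that degrades cAMP, went from 249, 296 and 266 counts to 69, 40 and 65 and fell by 2.19 on the log2 scale (standard error 0.14, edgeR FDR = 6.6e-11). ATF3, a stress-induced transcription factor, fell by 1.85 (standard error 0.077, edgeR FDR = 1.0e-13). The cytokine genes IL8 and IL6, which many other pathways also regulate, fell furthest. IL8 had 207, 153 and 141 counts in OV3/SCR and 9, 5 and 11 in OV3/COX1KD, and its log2 fold change was -4.27 (standard error 0.24, edgeR FDR = 8.2e-12). IL6 had 19, 27 and 22 counts against 1, 2 and 0, and was at least 7.40-fold lower against a floor of 3 counts per library (edgeR FDR = 1.0e-06).

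**Figure D4:**
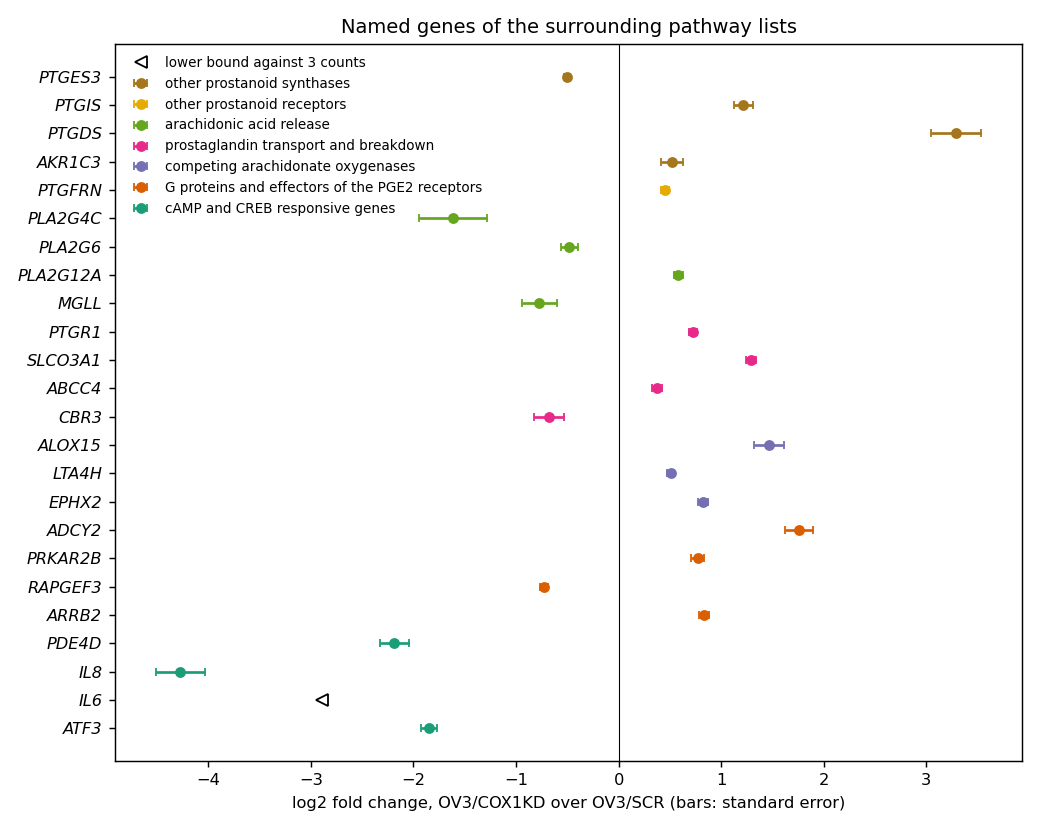
Log2 fold change (OV3/COX1KD over OV3/SCR) of the 24 named genes of the surrounding lists, with bars for the standard error and 1 colour per list. IL6 is an open triangle at its bound against 3 counts. SLCO3A1, PTGDS and ADCY2 lie to the right of 0, and the 4 genes of the cAMP and CREB list lie furthest to the left together with PLA2G4C.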

How the data were processed

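RNA from 3 OV3/SCR and 3 OV3/COX1KD cultures was sequenced on an Illumina HiSeq 2500 after TruSeq library preparation. The authors aligned reads to hg19 (GRCh37) with TopHat2 (2.0 per the submitters' processing notes) and deposited raw read counts per gene made with HTSeq, without normalization. The gene annotation and strand setting are not given in the sources used here, and no row of the table was at 0 in all libraries.

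The tests used edgeR 4.0.16 under R 4.3.3 (TMM, filterByExpr, glmQLFit, glmQLFTest, condition as the only factor, Benjamini-Hochberg adjustment over 17309 genes), and the scripts were tested on simulated data. The standard error is the log2 fold change divided by the square root of F. Totals of 25291505 to 27391538 counts set the precision. Exact Poisson, binomial (Clopper-Pearson) and permutation values came from scipy 1.17.1. Lengths and GRCh37 positions were from GENCODE 44 lifted to that build, which held 33556 of 34811 gene IDs. Promoters were from RefSeq.

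The listed genes, lists and tests were chosen with earlier results of these data known. Named were the listed genes, PTGES3 and up to 4 called genes of largest absolute log2 fold change in each pathway list. So were the 3 most similar profiles for PTGS1 and PTGER2. Chosen after their values were seen were HPGD, TBXA2R, CRTC1, SIK1, PLAA and the remaining members of counts of 5 or fewer. The phospholipase genes without a row were also named afterwards. The alternatives were RLE factors, total count scaling, no filter, a minimum of 10 counts per gene in each library, DESeq2 1.42.0, a block for the replicate number, dropping each library in turn, the longest transcript as length, and a 5 Mb window for neighbours.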

Additional observations from a re-analysis of the deposited data

How the results depend on the processing

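The calls of PTGS1 and PTGER2 held in all 12 alternatives, and PTGER4 was called in none. PTGES2 was called without OV3/COX1KD replicate 2, and leaving out each library in turn gave it log2 fold changes from 0.061 to 0.106 and gave 2 to 3 called genes of the list. The 24 named genes of the pathway lists kept direction and call in all 284 values obtained, and the requirement of 10 counts in every library removed 4 of them. The number of called genes ranged from 7124 to 8989 without single libraries and was 7143 with DESeq2. It was highest without OV3/COX1KD replicate 2. Over genes, the chi-square per degree of freedom was 4.96 and 6.47 between that library and OV3/COX1KD replicates 1 and 3. Between OV3/COX1KD replicates 1 and 3 it was 1.92. In OV3/SCR it was 3.21 between replicates 1 and 2, 2.40 between 1 and 3, and 1.83 between 2 and 3.

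With the longest transcript in place of merged exons, the level per kilobase was 5.10 for PTGS1, 27.6 for PTGES2 and 0.184 for PTGIR in OV3/SCR, and 3.74, 29.2 and 0.119 in OV3/COX1KD. Within 5 Mb in place of 2 Mb, the median log2 fold change of neighbours around PTGS1 was 0.20 in place of 0.28. Around PTGES2 it was 0.12 in place of 0.064, and around PTGER4 0.38 (38 genes) in place of 0.062 (10 genes). Of the 72 genes within 2 Mb of PTGES2, 35 had a higher estimate and 37 a lower one. Higher estimates than that of PTGER4 were seen in 8 of the 10 and 35 of the 38. The alternatives name what was changed, and the cause of the shift with window size was not tested.

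The growth protocol mentions replicate pairs, and no label ties the numbers to a shared harvest. The deviations of same-numbered libraries from their group means correlated at -0.00456, 0.0481 and 0.0286 across genes, which are not independent replicates, and those of differently numbered libraries at -0.0498 to 0.0225. The replicate block gave 8233 called genes and 2 of the list, PTGS1 with a log2 fold change of -0.45, PTGES2 0.08, PTGER2 1.28 and PTGER4 -0.45. Within same-numbered libraries the PTGER2 to PTGER4 log2 ratio differed by 1.855, 1.497 and 1.89, and 3 pairs allow no exact p below 0.250. Leaving out single libraries gave 1.59 to 1.84 for that difference. PTGS2, PTGES, PTGER1, PTGER3 and PTGIR had no value under most alternatives, because their counts did not pass the filter.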

Other observations

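Enzymes that compete with the cyclooxygenases for arachidonic acid, or act on its other products, were called in 3 of 7 tests, all higher in OV3/COX1KD cells, beside 47.9% of all tested genes. Total count scaling called 3 higher and 1 lower. ALOX15, a lipoxygenase, had 54, 46 and 38 counts in OV3/SCR and 129, 120 and 125 in OV3/COX1KD, a rise of 1.47 on the log2 scale (standard error 0.15, edgeR FDR = 4.8e-08). EPHX2, the soluble epoxide hydrolase that acts on epoxides of arachidonic acid, rose from 24.2 ± 0.452 to 42.9 ± 0.812 CPM (SD, n = 3, log2 fold change 0.82, edgeR FDR = 1.3e-11). LTA4H, a leukotriene hydrolase, rose from 106.6 ± 2.44 to 151.3 ± 1.20 CPM (SD, n = 3, log2 fold change 0.51, edgeR FDR = 6.1e-11), and another gene model covers 10.9% of its exon length. The 4 others tested were not called, among them CYP2J2, an epoxygenase, at 11.8 ± 1.12 and 11.9 ± 0.782 CPM (SD, n = 3, edgeR FDR = 0.844). CYP2J2 was named after its values were seen.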
